A study of Mus musculus with 9 samples.

Results

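The 6 genes described here encode enzymes that make or break down proline and hydroxyproline: Prodh, Prodh2, Aldh4a1, Hoga1, Grhpr and Pycr1. They were found by gene symbol among the 21868 genes of the deposited count table, and all 6 passed the filter on low counts, which kept 14668 genes. The genes were chosen by their levels in the same 9 libraries, in all 3 group comparisons, so their levels and fold changes are a description without p-values. P-values are given for other genes of the same pathways, whose lists were also drawn up with earlier results of these data known. The data are bulk RNA sequencing of mouse (Mus musculus) jejunum, 3 libraries in each of 3 groups: sham, TPN and starvation, each lasting 24 h before a 5 cm piece of jejunum was taken and cut open. TPN in its usual sense is total parenteral nutrition, the infusion of nutrients into a vein. The labels give no strain, sex, age or diet and do not say what the sham treatment or the infusate consisted of, so a difference between groups is one between whole procedures. Replicates are labelled biological, with no mention of separate mice, and if they were not separate a p-value reflects only a spread between samples that may be technical. Each library holds every cell type of the piece, so that fewer cells of a type and less RNA per cell cannot be told apart.

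As background, proline is oxidised in mitochondria by proline dehydrogenase (Prodh) to pyrroline-carboxylate, which Aldh4a1 oxidises to glutamate. Hydroxyproline, which comes mostly from collagen, runs in parallel: Prodh2 is the hydroxyproline dehydrogenase, Aldh4a1 serves the next step, Got2 the transamination after it, and Hoga1 the aldolase step that yields pyruvate and glyoxylate. Glyoxylate is reduced to glycolate by Grhpr or turned into glycine by Agxt, and is otherwise a source of oxalate; inherited loss of HOGA1 or GRHPR causes primary hyperoxaluria. In the opposite direction, Aldh18a1 makes pyrroline-carboxylate from glutamate and Oat makes it from ornithine, and reductases such as Pycr1 and Pycr3 (Pycrl in this table) turn it into proline. Small intestinal epithelium is known for oxidising proline and for making citrulline and proline from glutamine and glutamate.

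Enterocyte genes were abundant in every library, and the 8 enterocyte markers, none of them at 0, together made 20500 to 60700 CPM (counts per 1000000, scaled with TMM factors, which align libraries on most of their genes). Liver and kidney are textbook sites of hydroxyproline breakdown. The 8 hepatocyte markers summed to 5.43 to 18.0 CPM, mostly Apoh (2.95 to 10.2) and, in sham replicate 3 and starvation replicate 3, Cyp2e1 (7.08 and 7.29), while albumin (Alb) was at 0 to 0.463. The 6 kidney tubule markers summed to 0.0982 to 0.561 CPM, with Kap, Aqp2 and Slc22a6 at 0 in every library. Library totals ran from 7779877 to 12084278 counts, so that 1 read was worth 0.0798 to 0.119 CPM. Sham replicate 2 stood apart by its smooth muscle markers (9400 CPM summed over 9 genes, against 434 to 1360 in the other 8 libraries). Villus tip markers were highest in starvation replicate 3 (73800 CPM summed over 6 genes, against 14100 to 57300), which also had the lowest crypt stem cell markers (173 CPM, against 629 to 1130) and cycling cell markers (107 CPM, against 178 to 385). The 9 pancreatic acinar markers summed to 2480 CPM in sham replicate 1, 13900 in TPN replicate 2, 1810 in starvation replicate 1 and 272 in TPN replicate 1, against 16.5 to 23.6 elsewhere. The mean log2 CPM of 6 B and plasma cell markers was 6.36 and 6.06 in starvation replicates 1 and 2, against 1.98 to 5.18 in the other 7 libraries.

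Prodh, which opens proline oxidation, was at 47.3, 70.4 and 52.8 CPM in the sham libraries, at 88.8, 72.8 and 76.3 in TPN, and at 68.1, 69.1 and 116 in starvation. Every TPN library lay above every sham library, while the starvation libraries overlapped sham replicate 2. The fitted log2 fold changes were 0.48 ± 0.23 (± SE) in TPN and 0.57 ± 0.23 in starvation against sham. Without sham replicate 2 and starvation replicate 3 they were 0.71 and 0.46. TPN and starvation were close for Prodh, with a log2 fold change of -0.09 ± 0.23 between them.

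Aldh4a1, the dehydrogenase shared by both breakdown routes, moved differently. It was at 259, 300 and 259 CPM in sham, at 85.5, 68.2 and 85.9 in TPN, and at 238, 270 and 703 in starvation. All 3 TPN libraries were far below the other 6 libraries, while starvation overlapped sham, with replicate 3 far above the other starvation libraries. The means were 273 ± 23.8 CPM (SD, n = 3) in sham, 79.9 ± 10.1 in TPN and 404 ± 259 in starvation. The fitted log2 fold change of Aldh4a1 in TPN was -1.77 ± 0.38 against sham and -2.34 ± 0.38 against starvation, and -1.66 and -1.63 without sham replicate 2 and starvation replicate 3. The starvation difference from sham was 0.56 ± 0.37, and -0.03 without those libraries. With 1 library left out, the values in TPN were -1.83 to -1.67 against sham and -2.61 to -1.62 against starvation. The mean log2 CPM of the 8 enterocyte markers was lower in TPN than in sham, at 9.97 to 10.26 against 10.63 to 10.82. In starvation it was 10.26 to 11.52. Not all 8 went this way. Apob was at 10400 to 11900 CPM in TPN and 5400 to 8790 in sham, and Fabp1 at 83.0 to 101 and 54.5 to 87.6. The summed CPM of the 8 overlapped (24600 to 29300 in TPN, 24900 to 35900 in sham). Of the 8, 2 fell in TPN against sham and 2 against starvation by the edgeR quasi-likelihood test. Over all tested genes the lower shares were 5.12% and 3.90%. The 8 had a median log2 fold change of -0.66 in both comparisons. The 6 villus tip markers had medians of -0.93 and -1.34, and none of them passed in either comparison. Their mean log2 CPM was 8.32 to 8.85 in TPN, 9.13 to 10.24 in sham and 8.48 to 11.12 in starvation. The part of these cells in the Aldh4a1 values was not tested.

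The ratio of Prodh to Aldh4a1 reads within a library does not depend on the scaling between libraries, but restates the same counts. It was 0.182, 0.234 and 0.204 in sham, 1.04, 1.07 and 0.888 in TPN, and 0.285, 0.256 and 0.165 in starvation. Sham and starvation overlapped, and the lowest TPN library was above the highest of the other 6. Per kilobase of exon the log2 ratio averaged -2.95 ± 0.18 (SD, n = 3) in sham, -0.67 ± 0.14 in TPN and -2.79 ± 0.42 in starvation. Of the other pairs computed, Hoga1 over Aldh4a1 overlapped between TPN (-7.31 to -6.04) and sham (-6.34 to -5.96). Prodh over Pycr1 did so too (2.2 to 3.39 and 1.5 to 3.02). Hoga1 over Grhpr did not (-3.72 to -2.4 and -2.18 to -1.49).

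**Figure D1:**
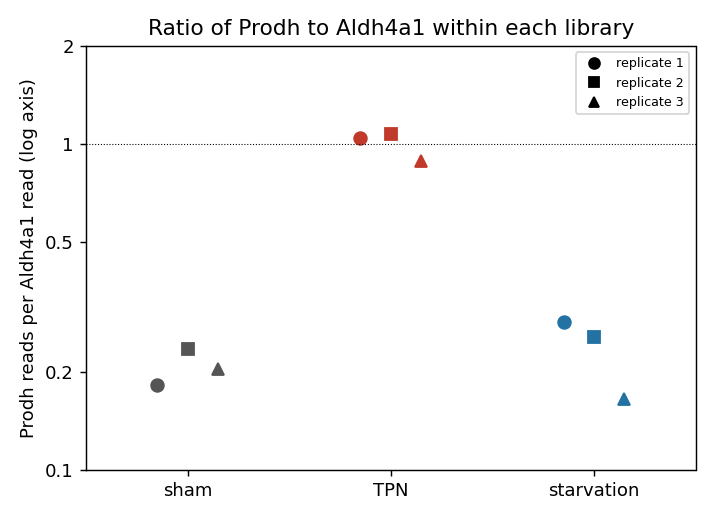
Prodh reads per Aldh4a1 read in each of the 9 libraries (log axis), by group, with the marker shape giving the replicate and a dotted line at a ratio of 1. The TPN libraries lie at 0.888 to 1.07 and the sham and starvation libraries at 0.165 to 0.285.

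The Aldh4a1 counts may share reads with another annotated gene. In GENCODE release M21, Aldh4a1 lies on chromosome 4 at 139622866 to 139649690 (GRCm38, plus strand), within Gm21969, a protein-coding gene at 139603186 to 139662691 on the same strand that covers 32.5% of its exon bases. The table gives both, and Gm21969 exceeded Aldh4a1 by 103 to 188 counts in every library while Aldh4a1 itself ran from 572 to 6073. Gm21969 was at a log2 fold change of -1.63 ± 0.36 in TPN against sham. How reads on both genes were counted is not given, and the rows are not taken as separate measurements. Prodh (chromosome 16, 18060357 to 18090203, minus strand) overlaps Dgcr6 on the opposite strand without sharing exon bases. Dgcr6 was at a log2 fold change of -0.41 ± 0.36 in TPN and 0.16 ± 0.36 in starvation against sham (quasi-likelihood adjusted p = 0.495 and 0.821). The library protocol names no step that marks the strand.

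Bases upstream of 3 RefSeq starts (build GRCm38.p6) are shown because Prodh and Aldh4a1, which act in sequence, differed in TPN, and because Pycr1 is a textbook target of the amino acid response factor ATF4. Each is the stretch of the 250 bases before the start that lies in no GENCODE exon, and capitals mark CCAAT boxes (CCAAT or its reverse complement ATTGG) and, in Pycr1, the ATF4 composite element TGATGCAAT. Prodh (chr16:18089293-18089440, minus strand) has neither. Its stretch lies within the GENCODE gene, which runs to 18090203, and leaves out the exon bases from 18089191 that adjoin the RefSeq start. The Prodh stretch is thus not like the others. Aldh4a1 (chr4:139622644-139622865, plus strand) has 3 CCAAT boxes, and Pycr1 (chr11:120643770-120643998, minus strand) has 2 of them and the ATF4 element.
Prodh: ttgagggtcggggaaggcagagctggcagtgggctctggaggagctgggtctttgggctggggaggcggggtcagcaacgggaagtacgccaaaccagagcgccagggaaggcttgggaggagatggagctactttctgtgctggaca
Aldh4a1: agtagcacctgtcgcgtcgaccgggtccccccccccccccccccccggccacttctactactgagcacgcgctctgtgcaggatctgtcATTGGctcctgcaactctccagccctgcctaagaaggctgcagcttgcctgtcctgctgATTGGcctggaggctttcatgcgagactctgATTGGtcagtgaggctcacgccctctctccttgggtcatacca
Pycr1: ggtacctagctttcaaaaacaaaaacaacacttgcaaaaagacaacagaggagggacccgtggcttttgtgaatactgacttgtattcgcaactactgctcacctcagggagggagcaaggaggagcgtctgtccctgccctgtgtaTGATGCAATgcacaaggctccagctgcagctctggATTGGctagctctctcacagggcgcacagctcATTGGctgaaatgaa

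On either strand, TGATGCAAT occurred in 50 of 27025 RefSeq promoters of 250 bases (0.185%) and CCAAT in 34.5% of them, windows longer than the stretches shown. In Pycr1 the ATF4 element began 103 bases before the start. The letters describe these windows and say nothing of binding.

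Hoga1, the aldolase that ends hydroxyproline breakdown, was higher in starvation and lower in TPN than in sham. Its counts were 18, 16 and 23 in sham, 3, 4 and 5 in TPN, and 47, 71 and 107 in starvation. In CPM these were 1.77, 1.71 and 1.92, then 0.247, 0.477 and 0.400, and then 3.75, 7.49 and 12.4. The 3 groups did not overlap. The fitted log2 fold change of Hoga1 was 2.12 ± 0.46 in starvation and -2.25 ± 0.54 in TPN against sham, and -4.37 ± 0.54 in TPN against starvation. The level is low, and the exact 95% counting interval of the ratio of summed reads was 0.0252 to 0.0882 for TPN over starvation (12 against 225 reads), 0.0983 to 0.379 for TPN over sham and 3.03 to 5.54 for starvation over sham. The intervals cover counting error only.

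Over the 21 alternatives tried, the values of Hoga1 ran from -4.89 to -3.83 in TPN against starvation, from -2.44 to -2.02 in TPN against sham and from 1.59 to 2.46 in starvation against sham. The lowest starvation value came without sham replicate 2 and starvation replicate 3, and without starvation replicate 3 alone it was 1.61. Hoga1 (chromosome 19, 42045610 to 42070953, plus strand) contains 4933411K16Rik, which shares 43 of its 2259 exon bases and had 0 to 4 counts per library. The Hoga1 upstream window lies wholly in annotated exon and is not shown.

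Grhpr, which reduces the glyoxylate that Hoga1 releases, was at 3.53, 4.59 and 6.16 CPM in sham, 2.31, 1.79 and 2.96 in TPN, and 7.82, 5.28 and 6.02 in starvation. The TPN libraries were below all others, and sham and starvation overlapped. The fitted log2 fold change of Grhpr was -1.43 ± 0.34 in TPN against starvation, and -1.62 to -1.10 over the 21 alternatives. Against sham it was -1.01 ± 0.34 in TPN and 0.42 ± 0.33 in starvation. Grhpr lies on chromosome 4 at 44981395 to 44990734 (plus strand) and overlaps no other annotated gene.

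Prodh2, the hydroxyproline dehydrogenase, had few reads, with 6, 7 and 21 counts in sham, 10, 13 and 15 in TPN, and 34, 34 and 7 in starvation. Starvation replicates 1 and 2, at 2.71 and 3.59 CPM, were the highest libraries, and starvation replicate 3, at 0.810, lay within the sham range of 0.589 to 1.75. The fitted log2 fold change of Prodh2 was 0.18 ± 0.64 in TPN and 1.19 ± 0.63 in starvation against sham. The starvation libraries spread around a mean of 2.37 CPM with an SD of 1.42 (n = 3). The 95% counting interval of the starvation over sham ratio of summed reads was 1.5 to 3.51. It covers counting error only and leaves out the spread between libraries (7 to 34 counts in starvation). The B and plasma cell markers were likewise high in starvation replicates 1 and 2 and low in replicate 3, and their part in the Prodh2 values was not tested. Prodh2 lies on chromosome 7 at 30493622 to 30513402 (plus strand).

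Pycr1, a mitochondrial reductase of proline synthesis, was at 8.44, 4.37 and 6.16 CPM in sham, 4.29, 7.99 and 4.0 in TPN, and 5.82, 3.69 and 0.694 in starvation. The groups overlapped in all 3 comparisons (log2 fold change -0.23 ± 0.60 in TPN and -0.87 ± 0.61 in starvation against sham). Its lowest level, 6 counts, was in starvation replicate 3, the library with the lowest cycling and stem cell markers, and its highest level in each group was in the library with the most pancreatic acinar reads (sham replicate 1, TPN replicate 2 and starvation replicate 1). Without those 3 libraries, an alternative chosen after seeing the data, Pycr1 was at -0.35 in TPN and -1.25 in starvation against sham. The part of those cells in the values was not tested. Pycr1 lies on chromosome 11 at 120635712 to 120643769 (minus strand).

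**Figure D2:**
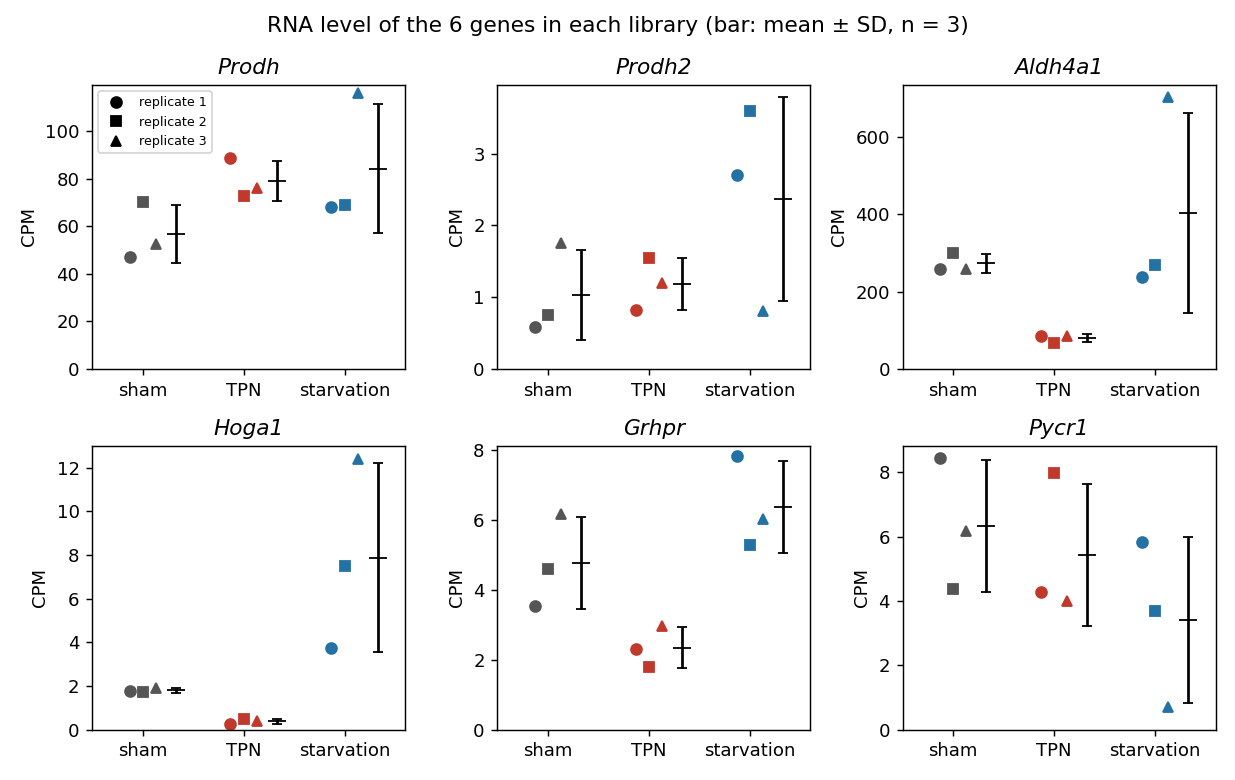
CPM of Prodh, Prodh2, Aldh4a1, Hoga1, Grhpr and Pycr1 in each library by group, with a linear axis per gene from 0, marker shapes for the replicates, and a bar for mean ± SD (n = 3). Aldh4a1 and Grhpr are lowest in all 3 TPN libraries, Hoga1 is ordered TPN, sham, starvation without overlap, and starvation replicate 3 is the highest library for Prodh, Aldh4a1 and Hoga1 and the lowest for Pycr1.

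Over the 6 genes, 2 passed the threshold of an adjusted p under 0.05 in TPN against sham (Hoga1 and Aldh4a1), both lower, where 5.12% of all tested genes were lower and 3.48% higher. In starvation against sham 1 passed (Hoga1), higher, where 2.55% of all genes were higher and 1.14% lower. In TPN against starvation 3 passed (Hoga1, Aldh4a1 and Grhpr), all lower, where 3.90% were lower and 1.94% higher. Since the genes were chosen on these comparisons, nothing is read from those counts. They moved with single libraries: in TPN against sham the count was 0 without any 1 sham or TPN library and 1 without starvation replicate 2. In starvation against sham it was 0 without any of these. In TPN against starvation it was 1 without any 1 TPN library. Their median log2 fold changes were -0.62, 0.57 and -1.22, beside -0.02, -0.01 and -0.03 over all tested genes. The first 2 comparisons share the sham libraries. Scaling by library totals moved the median of all genes in TPN against sham by 0.189 (and by 0.144 in TPN against starvation), and in TPN against sham it moved the share of lower genes among those called from 59.6% to 46.8%, and upper quartile factors gave 48.6%. Hoga1, Aldh4a1 and Grhpr kept their sign in TPN under both scalings in both comparisons. Grhpr was at -1.34 (upper quartile factors) and -1.29 (library totals) against starvation and no longer passed. It passed there in 7 of the 21 alternatives, and in 1 of the 9 fits with 1 library left out.

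**Figure D3:**
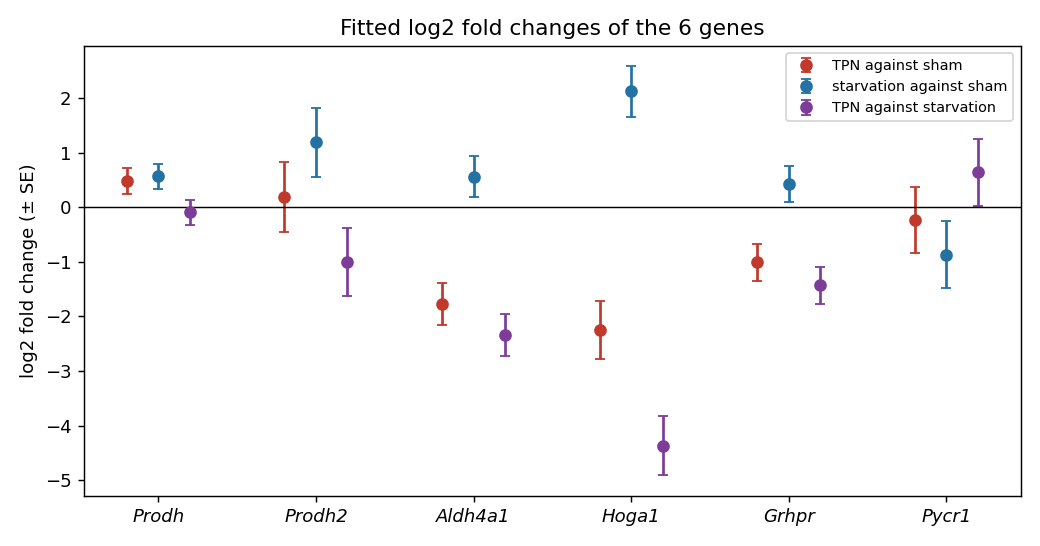
Fitted log2 fold changes (± SE, vertical axis) of the 6 genes in TPN against sham, starvation against sham and TPN against starvation. Hoga1 has the widest spread, from -4.37 (TPN against starvation) to 2.12 (starvation against sham), and Prodh stays between -0.09 and 0.57.

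Compared with each other per kilobase of exon, the genes spanned a wide range of levels. In sham the order of mean CPM per kilobase was Aldh4a1 (55.6 ± 4.85, SD, n = 3), Prodh (7.29 ± 1.55), Grhpr (2.97 ± 0.826), Pycr1 (1.61 ± 0.518), Hoga1 (0.795 ± 0.0476) and Prodh2 (0.418 ± 0.256). In TPN the order was Aldh4a1 (16.3 ± 2.06), Prodh (10.2 ± 1.08), Grhpr (1.47 ± 0.367), Pycr1 (1.38 ± 0.565), Prodh2 (0.485 ± 0.148) and Hoga1 (0.166 ± 0.0518). Grhpr and Pycr1 did not differ beyond their spread there. In starvation Hoga1 (3.49 ± 1.92) was next to Grhpr (3.97 ± 0.815), and Prodh2 (0.964 ± 0.578) and Pycr1 (0.865 ± 0.655) came last, with no difference beyond the spread within either pair. Prodh was more abundant than Prodh2, its counterpart for hydroxyproline, in every group.

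The other genes of proline handling were read from 7 lists with 71 tested genes, the collagens included, none of them among the 6 above. By the edgeR quasi-likelihood test over all genes, 3 rose and 16 fell in TPN against sham, beside 3.48% and 5.12% of all tested genes. In starvation against sham 5 rose and 2 fell, beside 2.55% and 1.14%. In TPN against starvation 1 was higher and 11 lower, beside 1.94% and 3.90%. The same shares are the background to the counts per list below. The median log2 fold changes of the 71 genes were -0.35, -0.08 and -0.20, beside -0.02, -0.01 and -0.03 over all tested genes. The 19 calls in TPN against sham dropped to 10 and 7 without sham replicates 1 and 3, to 4, 4 and 5 without TPN replicates 1, 2 and 3, and to 11 without starvation replicate 2. In starvation the number fell from 7 to 3 or fewer without sham replicate 1 or 3, any TPN library or starvation replicate 2, and to 4 without sham replicate 2. In TPN against starvation it fell from 12 to 3, 2 and 3 without TPN replicates 1, 2 and 3. Without sham replicate 2 and starvation replicate 3 together, the numbers were 35, 17 and 29. Calls over all genes moved too. In TPN against sham they went from 510 higher and 751 lower to 2232 and 2193. In starvation against sham they went from 374 and 167 to 1612 and 1337, and in TPN against starvation from 285 and 572 to 1500 and 1705. Without the 3 libraries richest in pancreatic reads the pathway calls were 2, 0 and 2 by edgeR, with 2 libraries left in each group. There 23, 26 and 22 had an unadjusted p under 0.05, and the calls over all genes were 15 higher and 24 lower, 2 and 0, and 5 and 31.

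Genes that bring proline into the cell moved in both directions. Slc36a1, the proton-coupled carrier of proline and glycine, was at 337 ± 63.8 CPM (SD, n = 3) in sham, 83.6 ± 5.26 in TPN and 438 ± 160 in starvation. It was lower in TPN than in sham (-2.01 ± 0.27, quasi-likelihood adjusted p = 0.00374) and than in starvation (-2.39 ± 0.27, adjusted p = 0.00219), and the call against starvation held in all 21 alternatives. That against sham held in 20 and was lost without the 3 pancreas-rich libraries (-2.11). The mean log2 CPM of the enterocyte markers was lower in TPN than in sham too, though Apob was higher, and their part was not tested. Slc6a20a, the sodium-coupled imino acid carrier, was at 299 ± 76.4, 227 ± 39.0 and 641 ± 88.0 CPM in sham, TPN and starvation. It rose in starvation (1.10 ± 0.24, quasi-likelihood adjusted p = 0.0393) and was lower in TPN than in starvation (-1.50 ± 0.24, adjusted p = 0.0104); its close copy Slc6a20b, whose reads it may share, fell in TPN against sham (-0.49 ± 0.12, adjusted p = 0.0422). Slc6a7, a proline carrier best known from brain, was low but rose in TPN (2.11 ± 0.37, quasi-likelihood adjusted p = 0.0113) and in starvation (2.74 ± 0.37, adjusted p = 0.0105), from 52 reads in sham to 234 and 342. Without any 1 sham or TPN library or starvation replicate 2, the Slc6a20a call in starvation (0.90 to 1.22) and the Slc6a20b call (-0.53 to -0.47) were lost, and against starvation Slc6a20a lost its call without TPN replicate 2 or 3 (-1.48 and -1.39). Slc6a7 lost its call in TPN without sham replicate 3 or TPN replicate 1 or 2 (1.98, 2.03 and 2.04) and in starvation without sham replicate 3 or starvation replicate 2 (2.6 and 2.68).

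Slc38a2, the amino acid carrier induced by amino acid lack, was higher in TPN than in sham (0.91 ± 0.22, quasi-likelihood adjusted p = 0.0376). Slc6a18, a relative of the neutral amino acid carrier, rose in starvation from 12 to 136 reads, of which 85 were in replicate 3 (3.59 ± 0.81, adjusted p = 0.0453 by the quasi-likelihood test). In TPN against sham Slc6a18 was at 1.69, and at 2.81 without sham replicate 2 and starvation replicate 3, where it passed. The brush border carriers Slc6a19 (-2.30 ± 0.39) and Slc15a1, the peptide carrier (-2.07 ± 0.43), were lower in TPN than in starvation (quasi-likelihood adjusted p = 0.0130 and 0.0240). Without sham replicate 2 and starvation replicate 3 these were -1.58 and -1.41. In all, 2 of 13 tested transport genes rose and 2 fell in TPN against sham, 3 rose in starvation against sham, and 4 were lower in TPN than in starvation. Of 3 tested oxalate and sulfate carriers, Slc26a2 rose in starvation (1.10 ± 0.23, quasi-likelihood adjusted p = 0.0341). Without any 1 sham or TPN library or starvation replicate 2, Slc38a2 (0.82 to 1.00) and Slc26a2 (0.96 to 1.19) lost their calls, and Slc6a18 did so without all of these but sham replicate 2 (3.19 to 3.84). The calls of Slc6a19 (-2.36 to -2.27) and Slc15a1 (-2.19 to -1.98) were lost without any 1 TPN library.

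Peptidases that release proline from peptides fell in TPN against sham in 2 of 13 cases, with none higher and a list median of -0.03. Without sham replicate 2 and starvation replicate 3, 4 of the 13 were higher and 4 lower. Pepd, the dipeptidase that frees proline and hydroxyproline from dipeptides and so stands before the enzymes above, was at 265 ± 34.1 CPM in sham, 126 ± 12.5 in TPN and 297 ± 111 in starvation (SD, n = 3). It fell by 1.07 ± 0.26 against sham and by 1.23 ± 0.26 against starvation (quasi-likelihood adjusted p = 0.0367 and 0.0254). Xpnpep2, a membrane aminopeptidase for proline-containing ends, fell by 1.89 ± 0.28 and 2.52 ± 0.28 (quasi-likelihood adjusted p = 0.00559 and 0.00204), and both calls held in all 21 alternatives. The lower mean of the enterocyte markers in TPN than in sham, with Apob higher, stands beside both genes. The part of these cells was not tested. Dpp4, the brush border dipeptidyl peptidase, was lower in TPN than in starvation (-1.55 ± 0.33, quasi-likelihood adjusted p = 0.0279), and by 1.06 without sham replicate 2 and starvation replicate 3. None of the 13 passed in starvation against sham by edgeR, limma voom or DESeq2, and 3 had an unadjusted p under 0.05. Pepd lost its call against sham without any 1 sham or TPN library or starvation replicate 2 (-1.17 to -1.0) and against starvation without any 1 TPN library or starvation replicate 2 (-1.31 to -1.17). Dpp4 did so without sham replicate 3, any 1 TPN library or starvation replicate 2 (-1.61 to -1.51).

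Of 9 tested genes of hydroxyproline and glyoxylate handling, 3 fell in TPN against sham. Got2, the mitochondrial transaminase between the Aldh4a1 and Hoga1 steps, was at 83.0 ± 4.05 CPM in sham and 45.8 ± 2.99 in TPN (SD, n = 3; -0.86 ± 0.20, quasi-likelihood adjusted p = 0.0360). Its cytosolic counterpart Got1 (-0.98 ± 0.26) and Ldha, a lactate dehydrogenase subunit that can also act on glyoxylate (-0.72 ± 0.18), fell as well (quasi-likelihood adjusted p = 0.0486 and 0.0417). Against starvation, Got1 (-1.47 ± 0.26) and the glycerate kinase Glyctk (-1.06 ± 0.23) were lower in TPN (quasi-likelihood adjusted p = 0.0150 and 0.0328), while Got2 did not pass (-0.51 ± 0.20, adjusted p = 0.168), except without sham replicate 2 and starvation replicate 3 (-0.68) or without starvation replicate 3 alone (-0.66). The transaminase Agxt and the glycolate and hydroxyacid oxidases Hao1 and Hao2 did not pass the filter, with 9 to 17 reads a group for Agxt. None of the 9 passed in starvation against sham by edgeR or limma voom, against 1 by DESeq2 and 2 with an unadjusted p under 0.05. Against sham, the calls of Got2 (-0.92 to -0.82), Got1 (-1.02 to -0.91) and Ldha (-0.77 to -0.65) were lost without any 1 sham or TPN library or starvation replicate 2. Against starvation, Got1 lost its call without any 1 TPN library (-1.51 to -1.40) and Glyctk without sham replicate 1, any 1 TPN library or starvation replicate 2 or 3 (-1.15 to -0.85).

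Genes of proline synthesis gave few calls. Glud1, which links glutamate and oxoglutarate, was at 348 ± 39.5 CPM (SD, n = 3) in sham, and rose to 690 ± 56.5 in TPN and 1020 ± 195 in starvation (0.99 ± 0.20 and 1.55 ± 0.20, quasi-likelihood adjusted p = 0.0184 and 0.00958). Its call in TPN was lost without sham replicate 1 or 3 or any 1 TPN library (0.90 to 1.06), and its call in starvation without sham replicate 3 (1.63). Pycrl was at -0.19 ± 0.12 and -0.37 ± 0.12 in TPN and starvation against sham, Aldh18a1 at 0.23 ± 0.31 and -0.37 ± 0.31, and Oat at -0.02 ± 0.29 and -0.37 ± 0.29. None of these 6 values passed by edgeR (quasi-likelihood adjusted p = 0.122 to 0.970). Pycrl in starvation passed, at -0.43, once sham replicate 2 and starvation replicate 3 were left out. Oat and Aldh18a1 were lowest in starvation replicate 3, at 152 and 38.1 CPM, against 267 to 420 and 65.8 to 115 in the other 8 libraries.

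**Figure D4:**
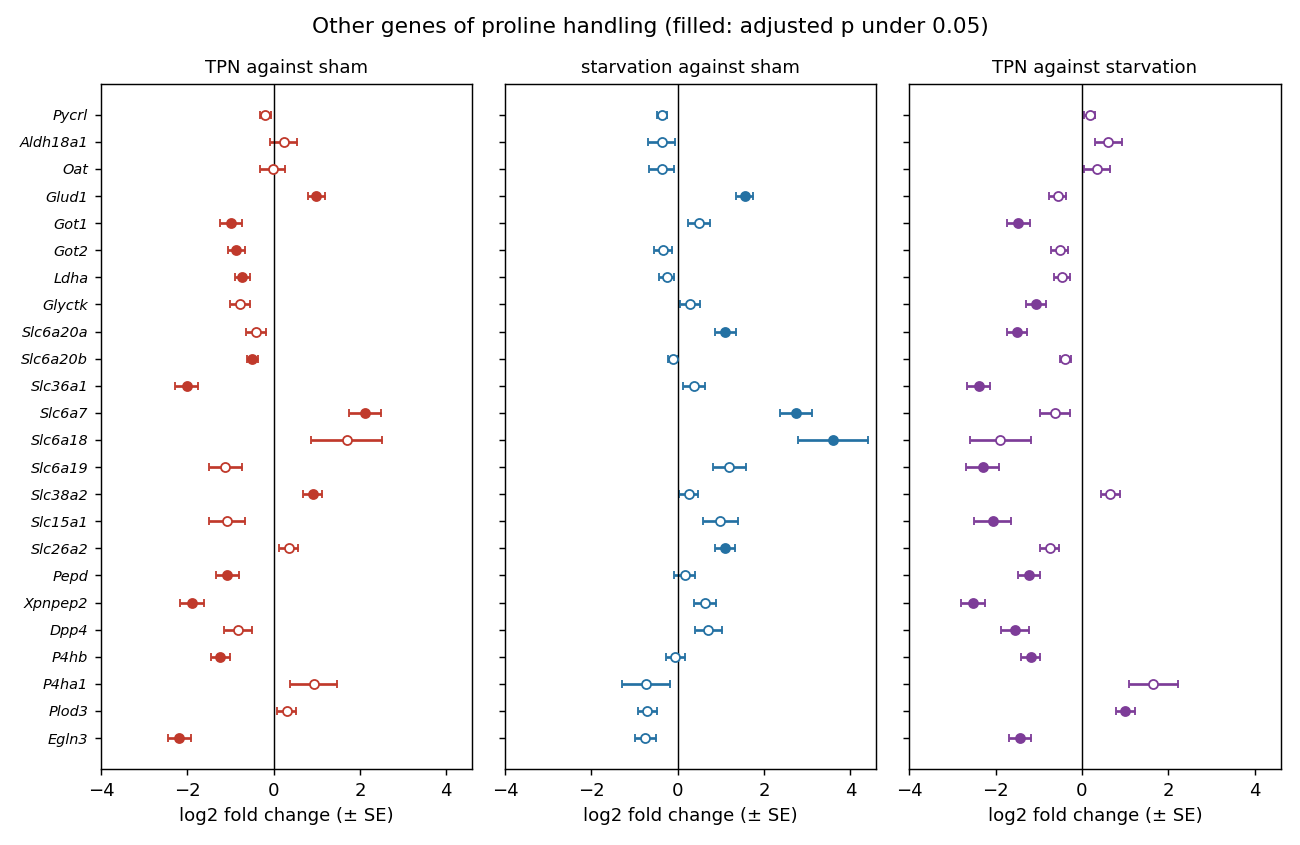
Log2 fold changes (± SE, horizontal axis) of 24 other genes of proline synthesis, breakdown, transport, peptide release and hydroxylation in the 3 comparisons, with filled circles where the quasi-likelihood adjusted p was under 0.05. Slc36a1 and Xpnpep2 lie at or below -1.89 in both TPN panels, Glud1 and Slc6a7 lie above 0 in both panels against sham, and the synthesis genes Pycrl, Aldh18a1 and Oat are unfilled in all 3.

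Hydroxyproline is made within proteins, chiefly collagen, by hydroxylases. Of 15 tested prolyl and lysyl hydroxylase genes, P4hb, the disulfide isomerase that is also a subunit of the collagen enzyme, fell in TPN against sham (-1.24 ± 0.22) and against starvation (-1.19 ± 0.22; quasi-likelihood adjusted p = 0.0120 and 0.0167). Egln3, a prolyl hydroxylase of the oxygen-sensing HIF factors and not of collagen, fell by 2.18 ± 0.26 and 1.44 ± 0.25 (quasi-likelihood adjusted p = 0.00247 and 0.0138). P4ha1, a catalytic subunit for collagen, did not pass in TPN against sham (0.93 ± 0.55, quasi-likelihood adjusted p = 0.311), and its sham libraries were at 4.42, 18.9 and 4.0 CPM, with the high value in the muscle-rich replicate 2. Without that library P4ha1 was at 2.03, and without it and starvation replicate 3 at 2.08, and both values passed. Plod3, a lysyl hydroxylase, was higher in TPN than in starvation (1.01 ± 0.22, quasi-likelihood adjusted p = 0.0309). The Egln3 call against sham held in all 21 alternatives, and that against starvation was lost without TPN replicate 1 or 2 (-1.40 and -1.32). P4hb lost its call against sham without sham replicate 3 or any 1 TPN library (-1.27 to -1.20) and against starvation without any 1 TPN library (-1.21 to -1.15), and Plod3 without sham replicate 3, any 1 TPN library or starvation replicate 2 (0.96 to 1.13).

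Of 10 collagen genes, 7 fell in TPN and 2 in starvation against sham. Col3a1 was at 131 ± 68.7 CPM in sham, 20.7 ± 3.75 in TPN and 28.5 ± 7.70 in starvation (SD, n = 3; -2.66 ± 0.36 and -2.20 ± 0.36, quasi-likelihood adjusted p = 0.00424 and 0.0193). Col1a1 fell too (-2.18 ± 0.41 and -1.76 ± 0.41, quasi-likelihood adjusted p = 0.0154 and 0.0474). Fibroblast markers, which include these genes and Col1a2, summed to 451, 1070 and 472 CPM in sham, highest in replicate 2. They summed to 236 to 302 in TPN and to 249 to 330 in starvation. Since it holds collagens, the sum is no separate measure of fibroblasts. Among the other markers, Fbln1 was at 46.4 to 53 CPM in TPN and 86.7 to 110 in sham. Lum was at 3.81 to 12.7 and 14.9 to 92.5. Pdgfra (63.6 to 83.4 and 61.3 to 71) and Dcn (58.3 to 106 and 61.6 to 333) overlapped. Col6a3 (-1.74 ± 0.33) and Col1a2 (-1.90 ± 0.40) also fell in TPN against sham. Without sham replicate 2 and starvation replicate 3, Col3a1 was at -2.09 and -1.48, and Col1a1 at -1.79 and -1.06, and all 4 still passed. The Col3a1 call in TPN held in 20 of the 21 alternatives and was lost without the 3 pancreas-rich libraries (-2.84), and that in starvation was lost without sham replicate 3 or starvation replicate 2 (-2.37 in both). Without any 1 TPN library the TPN calls of Col1a1 (-2.27 to -2.09), Col6a3 (-1.88 to -1.67) and Col1a2 (-1.91 to -1.90) were lost, and Col1a1 in starvation lost its call without any 1 sham or TPN library or starvation replicate 2 (-1.96 to -1.41). The part of the tissue makeup in these values was not tested.

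Known regulators were read through their targets. Of 12 tested ATF4 targets, Trib3, a pseudokinase, fell in TPN against sham (-1.55 ± 0.39) and against starvation (-2.00 ± 0.40; quasi-likelihood adjusted p = 0.0420 and 0.0206), while Asns, asparagine synthetase, was at 0.49 ± 0.48 and 0.15 ± 0.48 in TPN and starvation against sham (adjusted p = 0.542 and 0.879). Prodh is a known p53 target. Of 11 other p53 targets, none passed against sham by edgeR or limma voom, with 3 and 4 at an unadjusted p under 0.05 in TPN and starvation and 2 and 1 called by DESeq2. Between TPN and starvation, Sesn1, a stress sensor, was lower in TPN (-1.07 ± 0.17) and Ccng1, a cyclin, higher (0.72 ± 0.16; quasi-likelihood adjusted p = 0.00968 and 0.0363). Trib3 lost its call against sham without any 1 sham or TPN library or starvation replicate 2 (-1.70 to -1.26). Against starvation, Trib3 (-2.03 to -1.97) and Sesn1 (-1.12 to -1.04) lost their calls without any 1 TPN library, and Ccng1 without any 1 library other than sham replicate 2 or starvation replicate 3 (0.60 to 0.80).

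The genes whose pattern over the 9 libraries was closest to each of the 6 were ranked by Pearson's r of log2 CPM among 10150 genes with a mean log2 CPM of at least 3, as a description. For Hoga1 they were Tmem98, Pym1 and Cirbp (r = 0.977, 0.976 and 0.971, Spearman's rho = 0.93, 0.95 and 0.90). Cirbp, a cold-inducible RNA-binding protein, was at 23.4 to 25.6 CPM in sham, 10.5 to 14.7 in TPN and 57.8 to 78.9 in starvation, the same order as Hoga1. For Prodh they were Fnip1, a folliculin partner, Neu1, a lysosomal sialidase, and Npas2, a clock transcription factor (r = 0.972, 0.968 and 0.954, rho = 0.82, 0.88 and 0.88). For Aldh4a1, beside Gm21969, they were Spns2, a lipid exporter, and Eaf1, an elongation factor partner (r = 0.999 and 0.996, rho = 0.95 and 0.98). Spns2 was at 133 to 140 CPM in sham, 61.0 to 69.7 in TPN and 122 to 230 in starvation. For Grhpr they included Dalrd3 and Psma7 (r = 0.933 and 0.927, rho = 0.87 and 0.90), and for Prodh2 Zfp1, Crtc1 and Agap2 (r = 0.902, 0.895 and 0.893, rho = 0.93, 0.68 and 0.70). For Pycr1 they were Mcc, Ints5 and Mcm3, a replication helicase subunit (r = 0.987, 0.982 and 0.973, rho = 0.87, 0.92 and 0.85), and all 3 were lowest in starvation replicate 3. The 9 points fall in 3 groups, and starvation replicate 3 is an extreme point for Prodh, Aldh4a1, Hoga1 and Pycr1 alike.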

How the data were processed

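The authors deposited raw read counts per gene symbol. Per the submitters' processing notes, the tools were STAR 2.7.2e, featureCounts 2.0.0, cutadapt 2.9, DESeq2 1.32.0 and FastQC 0.11.8, with builds GRCm38 and mm10. No annotation release, strand setting or rule for reads on several genes is given in the sources used here. Libraries were grouped by title (3 per group, 3 groups), and 9 further count columns that matched no labelled sample were not used. Of 21868 genes, 21689 matched GENCODE release M21, which gave positions and exon lengths. edgeR 4.0.16 (R 4.3.3) was run on the deposited counts of all 9 libraries: filterByExpr (14668 genes kept), TMM factors, a quasi-likelihood fit with a mean per group (6 residual degrees of freedom), a contrast per comparison, and Benjamini-Hochberg adjustment over all tested genes (threshold 0.05). SE is the log2 fold change divided by the root of F. CPM are TMM scaled. The fit was tested on simulated counts drawn without outlying libraries, so that test does not cover the differences that moved calls here.

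The 6 genes and all gene lists were chosen with earlier results of these data known. Named genes are the 6, up to 4 genes past the threshold per list and comparison, fixed pathway neighbours, and the 3 nearest patterns per gene; 2 of these genes are not reported here, though the counts over lists keep their members. Alternative fits used limma 3.58.1 voom, DESeq2 1.42.0, other scalings and filters, fits of the groups compared, a replicate block, an adjusted p under 0.01, and libraries left out, the last of these chosen after seeing the data (sham replicate 1, TPN replicate 2 and starvation replicate 1 together). Sham replicate 2 and starvation replicate 3 were also left out together, a pair for which the labels give no reason. Replicates of a group differed by more than sampling noise (chi-square per gene 7.93 to 122). Protein sequences were not used here.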

Additional observations from a re-analysis of the deposited data

How the results depend on the processing

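Each comparison had 21 alternatives, of which the one without the 3 libraries richest in pancreatic reads was chosen after seeing the data. The labels give no reason to pair sham replicate 2 with starvation replicate 3. Leaving out this pair is therefore not a choice independent of the data either. Counts of the 6 that passed in TPN against sham (2) were 1 with limma voom, 1 with the replicate block 0 at an adjusted p under 0.01, 0 without the pancreas-rich libraries, and 0 to 3 with 1 library left out. In starvation against sham (1) they were 0 at an adjusted p under 0.01, 0 with the replicate block, 0 with limma voom and 0 when the fit held only those 2 groups, 0 without the pancreas-rich libraries, 2 without sham replicate 2 and starvation replicate 3 together, and 0 to 1 with 1 library left out. In TPN against starvation (3) they were 1 at an adjusted p under 0.01, 1 without the pancreas-rich libraries and 1 to 3 with 1 library left out. By an unadjusted p under 0.05 the edgeR counts were 3, 2 and 3. For the 71 pathway genes, the 19 calls in TPN against sham became 11 with library totals, 12 with the replicate block, 4 at an adjusted p under 0.01, 35 without both libraries, and 4 to 27 with 1 library left out. The 7 in starvation against sham became 14 with DESeq2, 0 with only the 2 groups compared (25 had an unadjusted p under 0.05 in the fit of all groups), 3 with the replicate block, 1 at an adjusted p under 0.01, 17 without both libraries, and 0 to 10 with 1 left out. The 12 in TPN against starvation became 20 with DESeq2, 6 with the replicate block, 2 at an adjusted p under 0.01, 29 without both libraries, and 2 to 16 with 1 left out. Without the pancreas-rich libraries these 3 counts became 2, 0 and 2. Calls over all genes shifted as well. With only the 2 groups compared, those in starvation against sham went from 374 higher and 167 lower to 2 and 0. The cause of these shifts was not tested. Same-numbered libraries of different groups correlated at -0.30 to 0.378 in their deviations from the group means, against -0.58 to 0.481 for different numbers. Sham replicate 1 and starvation replicate 1 (0.378) matched best by number between their groups. No library did so in both other groups, so the replicate block has no consistent pairing behind it. The signs that turned belong to values that did not pass. In TPN against sham, Oat became 0.01 with limma voom, 0.06 with upper quartile factors and 0.15 with library totals (-0.18 to 0.14 with 1 library left out). In starvation against sham without both libraries, Pepd was -0.09, P4ha1 0.61, Slc36a1 -0.05 and Glyctk -0.07. With 1 library left out, Pepd ran from -0.19 to 0.38, P4ha1 from -1.09 to 0.38, P4hb from -0.33 to 0.09 (0.04 without the pancreas-rich libraries), and Trib3 from -0.19 to 0.74, and in TPN against starvation Col1a1 from -0.70 to 0.07. Hoga1, Prodh2 and Grhpr rest on few reads, which limits their precision.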
